A study of Mus musculus with 6 samples.

Results

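A set of 10 genes of macrophages and monocytes was read in mouse skin, skin lesions and tumour cultures: the complement genes C1qa, C1qb and C1qc, the scavenger and lectin receptor genes Mrc1 and Cd163, the general macrophage genes Cd68 and Emr1, the inflammatory marker genes Cd14 and Itgam, and the monocyte chemokine receptor gene Ccr2. They are a fixed list of names, and all 10 had a row among the 23726 gene models of the deposited table. The samples were RNA-seq libraries of healthy skin (1 library), of 2 distinct papillomas and of 1 tumour, with 2 cultures, mSCC-38 and mSCC-20. Papillomas and tumour had been induced with the mutagen DMBA and the phorbol ester TPA, a tumour promoter, while the labels describe the skin only as healthy. Both cultures were isolated from DMBA/TPA tumours. The submitters call mSCC-38 tumorigenic and mSCC-20 non-tumorigenic. Strain, sex and age of the mice, the time of sampling, and whether the papillomas or the cultures share a mouse or a tumour are not stated in the labels used here.

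Skin holds resident macrophages that clear debris, store iron and take up glycoproteins, and it receives monocytes from blood through the chemokine receptor that Ccr2 encodes. C1qa, C1qb and C1qc encode the A, B and C chains of C1q, which starts the classical complement pathway; tissue macrophages are a main source of it. Mrc1 encodes the mannose receptor CD206 and Cd163 the receptor for haptoglobin-haemoglobin complexes, both typical of resident macrophages. Cd68 encodes a lysosomal glycoprotein and Emr1 the antigen F4/80. Cd14 encodes the lipopolysaccharide co-receptor of Toll-like receptor 4, and Itgam the alpha chain of the integrin CD11b/CD18, which neutrophils carry as well.

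The 3 C1q genes lie side by side on the minus strand of chromosome 4 (build mm9, as for all gene positions here), within 18699 bases that hold no other gene model. C1qb runs from 136436061 to 136442092, C1qc from 136445717 to 136448829 and C1qa from 136451831 to 136454759, with 3624 bases between C1qb and C1qc and 3001 between C1qc and C1qa. Promoter sequences (250 bases before to 50 after the gene start, RefSeq, build GRCm38.p6) were matched for 7 of the 10 genes. Printed are those of C1qb and C1qc, which moved together, and of Itgam and Cd163, which moved in opposite directions in the tumour. Capitals mark GAGGAA or its reverse complement, the core recognised by the myeloid factor PU.1, searched on both strands.
C1qb (chr4:136886151-136886450, minus strand): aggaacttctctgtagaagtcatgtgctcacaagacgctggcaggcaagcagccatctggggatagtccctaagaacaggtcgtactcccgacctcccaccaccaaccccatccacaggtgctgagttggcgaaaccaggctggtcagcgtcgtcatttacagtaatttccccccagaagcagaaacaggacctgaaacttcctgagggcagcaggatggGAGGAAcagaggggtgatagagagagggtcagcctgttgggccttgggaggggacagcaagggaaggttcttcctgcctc
C1qc (chr4:136892865-136893164, minus strand): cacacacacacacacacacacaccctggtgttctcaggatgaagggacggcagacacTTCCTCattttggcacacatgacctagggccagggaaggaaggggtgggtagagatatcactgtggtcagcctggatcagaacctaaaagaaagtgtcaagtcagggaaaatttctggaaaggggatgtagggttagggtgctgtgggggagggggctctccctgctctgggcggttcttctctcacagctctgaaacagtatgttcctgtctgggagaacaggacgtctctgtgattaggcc
Itgam (chr7:128062390-128062689, plus strand): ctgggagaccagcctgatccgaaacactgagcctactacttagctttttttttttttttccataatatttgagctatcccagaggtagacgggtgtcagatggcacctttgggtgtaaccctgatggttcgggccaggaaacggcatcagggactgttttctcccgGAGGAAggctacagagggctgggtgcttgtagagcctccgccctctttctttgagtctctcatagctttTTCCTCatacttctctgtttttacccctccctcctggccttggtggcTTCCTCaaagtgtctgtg
Cd163 (chr6:124304401-124304700, plus strand): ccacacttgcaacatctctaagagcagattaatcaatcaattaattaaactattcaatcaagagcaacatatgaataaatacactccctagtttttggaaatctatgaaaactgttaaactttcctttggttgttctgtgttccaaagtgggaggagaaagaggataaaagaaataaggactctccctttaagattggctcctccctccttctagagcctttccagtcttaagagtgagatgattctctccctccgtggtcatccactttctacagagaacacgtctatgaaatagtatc
GAGGAA occurred 3 times in the Itgam window, 3 times in that of Mrc1, 2 times in that of Cd68 and 1 time each in those of C1qb and C1qc. The windows of Cd163 and Ccr2 had 0 matches. Of 32851 mouse promoters of this length, 28.3% held the motif. TGANTCA, the AP-1 motif, occurred 2 times, in the Cd68 window, and was held by 7.81% of all promoters. These matches describe letters, not bound sites.

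Library totals lay between 25140489 counts (papilloma 1) and 42992597 counts (tumour), and a count of 0 allows up to 3 counts, or 0.0604 to 0.141 CPM by library (TMM-scaled counts per 1000000). Intervals and floors cover counting error only. RNA integrity numbers ran from 7.5 in skin through 8.2 and 8.4 in the papillomas to 9.1 in the tumour; their part in the results was not tested. Tissue markers differed between the biopsies too, with 5 skeletal muscle genes summing to 6490 CPM in skin, 1457 and 794 in the papillomas and 483 in the tumour. The 7 keratinocyte markers summed to 12246 CPM in skin, 55060 and 43803 in the papillomas, 27710 in the tumour, 7182 in mSCC-38 and 16452 in mSCC-20. Papilloma is the only group with more than 1 library, so the edgeR fits below rest on 1 residual degree of freedom and assume for skin and tumour the spread seen between papillomas. Whether the papillomas grew on separate mice is not in the labels. The p-values therefore rest on the spread between libraries, which may be technical. Both tested comparisons use the same papilloma libraries.

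The macrophage genes did not move as a block. In papilloma against skin, which asks how the benign lesion differs from its tissue of origin, the 3 C1q genes fell, Cd14 and Cd68 rose, and 5 genes did not pass edgeR's quasi-likelihood test. In tumour against papilloma, which asks how the tumour differs from the benign lesions, C1qa, C1qb, C1qc, Emr1, Cd14 and Itgam rose and Cd163 fell. All 10 genes passed the filter on low counts. The counts were 2 higher and 3 lower of 10 in papilloma, beside 11.9% higher and 14.2% lower of all 16353 genes tested, and 6 higher and 1 lower of 10 in tumour, beside 12.1% and 10.5%. Of all genes called in papilloma against skin 45.6% were higher, and 22.6% with scaling by total counts. Median log2 fold changes over all genes tested were -0.06 in papilloma against skin and, in tumour against papilloma, -0.01.

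**Figure D1:**
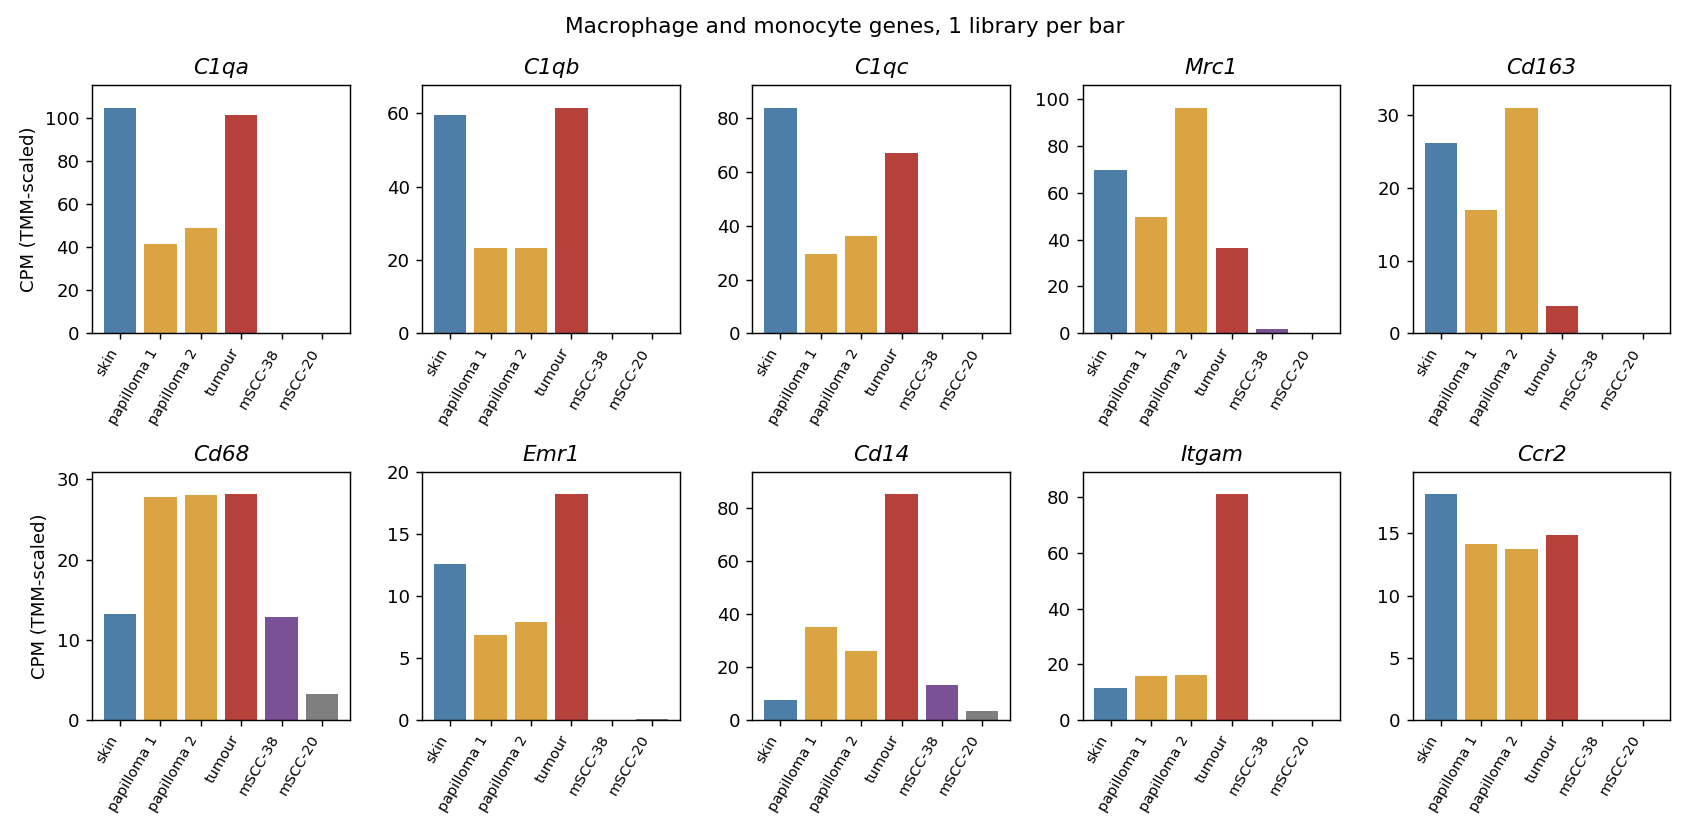
Expression of each gene in the 6 libraries, in TMM-scaled CPM (vertical axis, from 0), 1 bar per library, with no error bars because each bar is 1 library. The C1q genes are high in skin and tumour and lower in both papillomas, Itgam stands at 81.0 CPM in the tumour against at most 16.2 CPM elsewhere, and bars above 3 CPM in the cultures occur for Cd68 and Cd14.

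C1qa, the A chain, measured 105 CPM in skin, 41.6 in papilloma 1, 48.8 in papilloma 2 and 101 in the tumour. C1qb, the B chain, measured 59.4 CPM in skin, 23.3 and 23.3 in the papillomas and 61.5 in the tumour. For C1qc, the C chain, the values were 83.9 CPM in skin, 29.7 and 36.2 in the papillomas and 67.1 in the tumour. Each chain was therefore lower in both papillomas than in skin and than in the tumour, and the papillomas lay close together. Against skin, the papillomas had log2 fold changes of -1.21 ± 0.17 for C1qa, -1.35 ± 0.13 for C1qb and -1.35 ± 0.17 for C1qc (SE; edgeR adjusted p = 0.0154, 0.00799 and 0.0124). In bulk tissue, fewer cells of a type and less RNA per cell cannot be told apart. The tumour exceeded the papillomas by log2 fold changes of 1.16 ± 0.17, 1.40 ± 0.13 and 1.03 ± 0.18 for the A, B and C chains (edgeR adjusted p = 0.0144, 0.00533 and 0.0196). Tumour and skin were nearly level, with count ratios of 0.969 (95% exact Clopper-Pearson interval 0.930 to 1.01) for C1qa, 1.04 (0.982 to 1.09) for C1qb and 0.799 (0.761 to 0.838) for C1qc, with no replicate on either side. With scaling by total counts the tumour lay below skin, at log2 ratios of CPM of -0.34 for C1qa, -0.24 for C1qb and -0.61 for C1qc.

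The chains kept similar proportions while their sum changed. In TMM-scaled CPM the 3 chains summed to 248 in skin, 94.6 in papilloma 1, 108 in papilloma 2 and 230 in the tumour. Proportions were taken per gene length from the authors' RPKM values, which lack TMM scaling. Those values summed to 281 in skin, 75.9 in papilloma 1, 96.6 in papilloma 2 and 213 in the tumour. This RPKM sum serves only as the denominator within each library. C1qa took 41.6% to 44.5% of that sum in the 4 biopsies, C1qb 21.6% to 26.9% and C1qc 29.6% to 34.3%. As background, each C1q molecule holds its A, B and C chains in equal number.

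Mrc1 (chromosome 2, 14151041 to 14253650, plus strand), the mannose receptor, measured 69.7 CPM in skin, 49.7 in papilloma 1, 96.2 in papilloma 2 and 36.4 in the tumour. Cd163 (chromosome 6, 124254669 to 124280545, plus strand), the haemoglobin scavenger receptor, measured 26.2 CPM in skin, 17.0 in papilloma 1, 31.0 in papilloma 2 and 3.75 in the tumour. For both receptor genes skin lay between the papillomas, and the tumour lay below every other biopsy. Papilloma 2 exceeded papilloma 1 by 1.93-fold for Mrc1 and 1.83-fold for Cd163, the widest gaps between the papillomas among the 10 genes. Neither passed the test against skin (log2 fold changes 0.07 ± 0.40, or -0.33 with scaling by total counts, for Mrc1 and -0.12 ± 0.38 for Cd163, edgeR adjusted p = 0.909 and 0.824). In the tumour Cd163 fell, with a log2 fold change of -2.68 ± 0.44 relative to papilloma (edgeR adjusted p = 0.0179), and both papillomas gave the direction, with log2 ratios of CPM of -2.89 against papilloma 2 alone and -2.04 against papilloma 1 alone. Mrc1 had a log2 fold change of -1.01 ± 0.42 in the same comparison and did not pass (edgeR adjusted p = 0.153). The Mrc1 model contains the microRNA gene Mir511, which had 0 counts in every library.

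Cd68 (chromosome 11, 69477873 to 69479564, minus strand), the lysosomal glycoprotein, measured 13.2 CPM in skin, 27.8 and 28.1 in the papillomas and 28.2 in the tumour. The 3 lesions were thus level with each other and above skin. The gene rose in papilloma, at 1.08 ± 0.16 on the log2 scale (edgeR adjusted p = 0.0165, or 0.0749 with scaling by total counts alone) and stood at 0.01 ± 0.15 in tumour against papilloma (edgeR adjusted p = 0.973). Its model lies close to those of Mpdu1, Eif4a1 and Mir1934, and none overlaps it. Emr1 (chromosome 17, 57498109 to 57622952, plus strand), which encodes F4/80, measured 12.6 CPM in skin, 6.84 and 7.91 in the papillomas and 18.2 in the tumour. It rose in tumour against papilloma (1.30 ± 0.23, edgeR adjusted p = 0.0208), while its log2 fold change of -0.77 ± 0.23 in papilloma against skin did not pass (edgeR adjusted p = 0.0674). With scaling by total counts, or with at least 10 counts required in every biopsy, that difference did pass (edgeR adjusted p = 0.0454 and 0.0434).

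Cd14 (chromosome 18, 36884721 to 36886308, minus strand), the lipopolysaccharide co-receptor, measured 7.56 CPM in skin, 35.1 in papilloma 1, 26.3 in papilloma 2 and 85.3 in the tumour. Both papillomas thus lay between the single skin library and the single tumour library. The log2 fold change of papilloma over skin was 2.02 ± 0.24 (edgeR adjusted p = 0.0106) and tumour exceeded papilloma by 1.48 ± 0.21 (edgeR adjusted p = 0.0121). Itgam (chromosome 7, 135206154 to 135262005, plus strand), the CD11b chain, measured 11.4 CPM in skin, 15.7 and 16.2 in the papillomas and 81.0 in the tumour. Its rise in tumour against papilloma, 2.34 ± 0.14 on the log2 scale, was the largest among the 10 genes (edgeR adjusted p = 0.00235). Papilloma against skin gave 0.49 ± 0.15 for Itgam and did not pass (edgeR adjusted p = 0.0692). Ccr2 (chromosome 9, 124016922 to 124023879, plus strand), the monocyte chemokine receptor, was the flattest of the 10 genes across the biopsies, at 18.1 CPM in skin, 14.2 and 13.7 in the papillomas and 14.9 in the tumour. It passed neither test, with log2 fold changes of -0.38 ± 0.19 in papilloma against skin and 0.09 ± 0.19 in tumour against papilloma (edgeR adjusted p = 0.190 and 0.750).

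**Figure D2:**
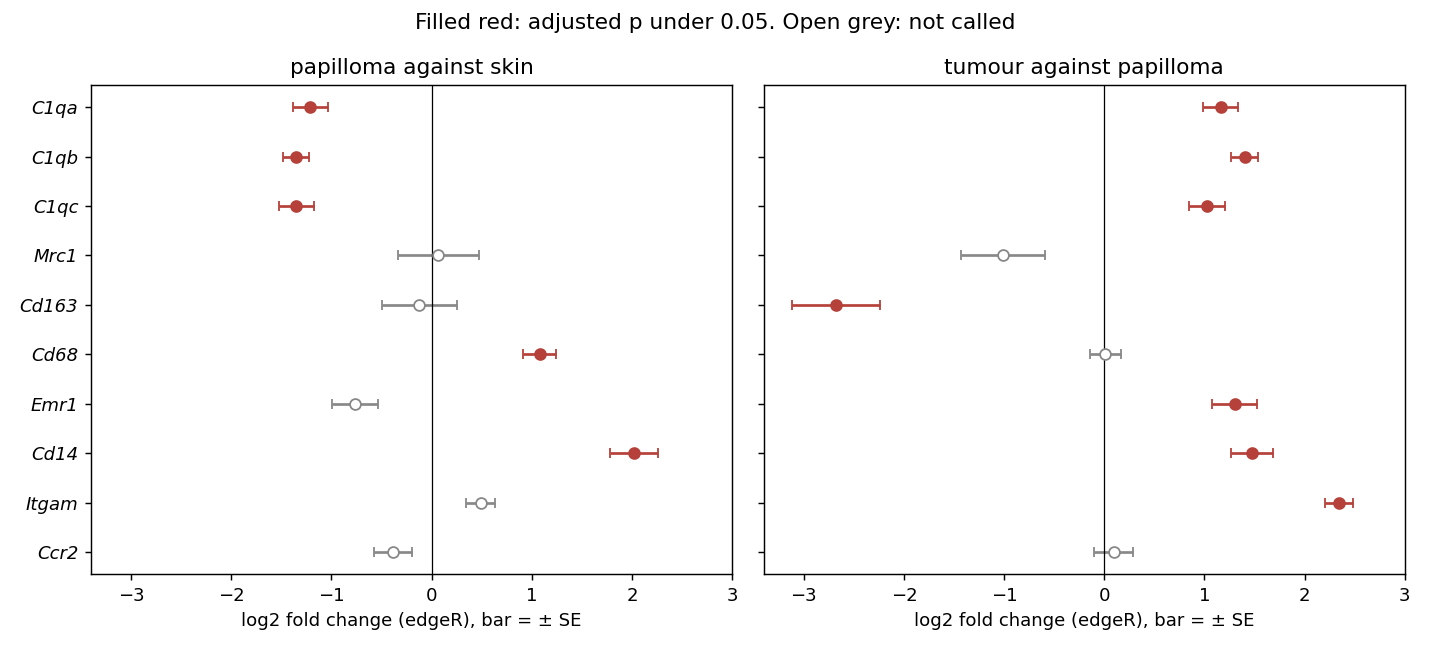
Log2 fold changes from edgeR with their SE for papilloma against skin (left) and tumour against papilloma (right), 1 row per gene; filled red points have an adjusted p under 0.05. The C1q genes lie near -1.2 to -1.4 on the left and 1.0 to 1.4 on the right, Cd14 is above 0 in both, and Cd163 stands at -2.68 on the right.

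Tumour and skin have 1 library each, so they were set side by side without a test, calling a gene by size at a 2-fold difference (with 0.5 CPM added to each side) and at least 1 CPM in the higher library. Cd14 was 11.3-fold higher in the tumour (95% exact interval 10.1 to 12.6), Itgam 7.13-fold higher (6.52 to 7.80) and Cd68 2.13-fold higher (1.93 to 2.34). Cd163 was 6.98-fold lower in the tumour (5.91 to 8.28). These are 3 genes higher and 1 lower of 10, beside 14.8% higher and 20.4% lower of the 14728 genes at 1 CPM or more. With scaling by total counts Cd68 fell short of the 2-fold rule, at a log2 ratio of CPM of 0.78. Mrc1 was 1.92-fold lower (1.80 to 2.04), short of the 2-fold rule, which it met with scaling by total counts. Emr1 had a ratio of 1.45 (1.30 to 1.61) and Ccr2 of 0.820 (0.739 to 0.909).

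Ordered per gene length, the C1q genes led in skin and Itgam came last. RPKM values in skin ran from 117 for C1qa, 96.2 for C1qc and 67.7 for C1qb to 15.9 for both Cd68 and Mrc1, 7.05 for Cd163, 6.10 for Cd14, 6.09 for Ccr2, 4.70 for Emr1 and 2.94 for Itgam. In the tumour C1qa (92.6 RPKM), C1qc (62.9) and C1qb (57.4) still led, but Cd14 followed at 56.3, then Cd68 at 27.7 and Itgam at 17.2. Mrc1 (6.78 RPKM), Emr1 (5.57), Ccr2 (4.09) and Cd163 (0.83) closed the tumour's order. Between papilloma 1 and papilloma 2 the order of some genes changed. C1qb had 18.8 and 20.9 RPKM against 20.1 and 16.7 for Cd14, and Cd163 3.24 and 6.59 against 3.37 and 3.63 for Ccr2. Other orders held in both papillomas. C1qc (24.1 and 32.7) stood above Cd68 (23.7 and 26.7), and Cd163 above Itgam (2.88 and 3.31). Itgam stood above Emr1 (1.81 and 2.33) and Mrc1 (8.03 and 17.3) above Ccr2.

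Resident markers were then set against inflammatory ones as the mean log2 (CPM + 0.5) of C1qa, C1qb, C1qc, Mrc1 and Cd163 minus that of Cd14 and Itgam. The size of this number depends on gene lengths, so only differences between libraries are read, and no test was made because the score is built from the chosen genes. It was 2.69 in skin, 0.35 in papilloma 1, 0.99 in papilloma 2 and -1.19 in the tumour. Papilloma thus stood 2.02 below skin (-2.02, with an SD of 0.46 between the papillomas) and the tumour 1.86 below papilloma (-1.86). The resident side was not uniform. C1q alone minus the inflammatory pair gave 3.05 in skin, 0.38 and 0.73 in the papillomas and -0.15 in the tumour, so most of its shift lay between skin and papilloma. Mrc1 and Cd163 minus the inflammatory pair gave 2.14 in skin, 0.30 and 1.38 in the papillomas and -2.74 in the tumour. A lower score can come from either side. In papilloma against skin Mrc1 and Cd163 were not called (log2 fold changes 0.07 and -0.12), while Cd14 rose by 2.02. In tumour against papilloma the C1q genes rose by 1.03 to 1.40, and Cd14 (1.48) and Itgam (2.34) rose further. The C1q genes minus Mrc1 and Cd163 stood at 0.91 in skin, 0.07 and -0.66 in the papillomas and 2.59 in the tumour, so the resident markers parted from each other in the tumour.

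**Figure D3:**
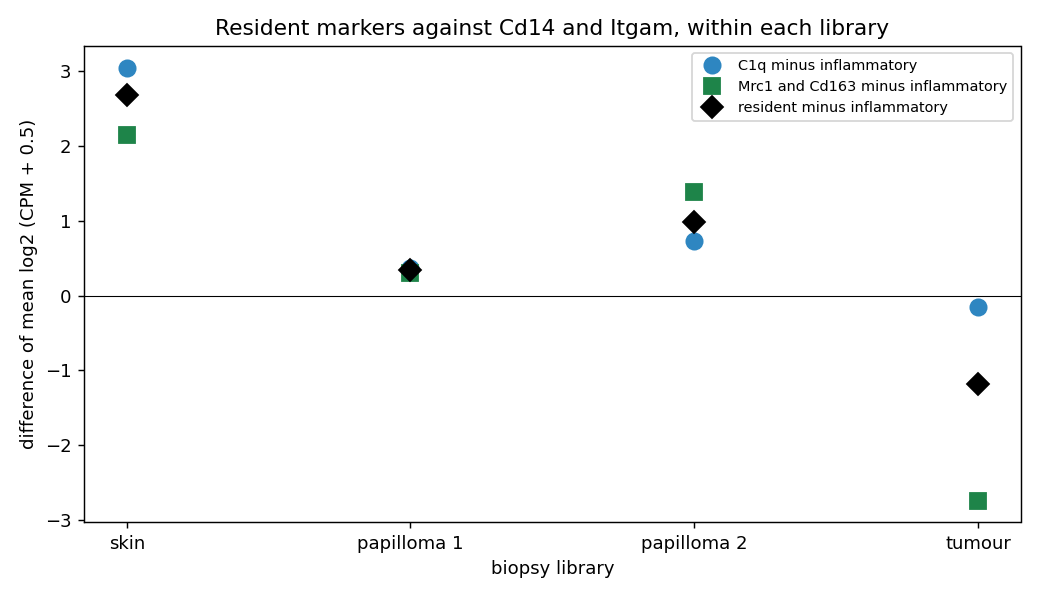
Difference between the mean log2 (CPM + 0.5) of resident markers and of Cd14 and Itgam (vertical axis) in each of the 4 biopsies, for the C1q genes, for Mrc1 and Cd163, and for all 5 together. All 3 scores are highest in skin and lowest in the tumour, at -2.74 against 2.14 in skin for Mrc1 and Cd163 and at -0.15 against 3.05 in skin for C1q. A lower score can come from lower resident markers or from higher Cd14 and Itgam.

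Set against lineage genes of the same library, the shifts differed by yardstick. Csf1r, the receptor that macrophages need for survival, measured 89.8 CPM in skin, 63.9 and 58.7 in the papillomas and 81.0 in the tumour and passed neither test (edgeR adjusted p = 0.0636 against skin for the papillomas and 0.141 against papilloma for the tumour). Its log2 fold change in papilloma against skin did pass with scaling by total counts (-0.97, edgeR adjusted p = 0.0250) and with at least 10 counts in every biopsy (-0.55, edgeR adjusted p = 0.0245). Ptprc, the pan-leukocyte gene for CD45, measured 24.1 CPM in skin, 22.8 and 21.7 in the papillomas and 67.5 in the tumour. It rose in tumour against papilloma (log2 fold change 1.60 ± 0.14, edgeR adjusted p = 0.00445). Per Csf1r, the tumour differed from skin on the log2 scale by 3.64 for Cd14 and 2.98 for Itgam, by 0.10, 0.20 and -0.18 for C1qa, C1qb and C1qc, and by -2.65 for Cd163. Per Ptprc, the same differences were 2.01 for Cd14 and 1.35 for Itgam, but -1.53, -1.43 and -1.81 for the C1q genes and -4.29 for Cd163. The C1q level of the tumour was therefore near that of skin per Csf1r and below it per Ptprc. Ccr2 differed between tumour and skin by -0.14 per Csf1r and -1.77 per Ptprc.

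**Figure D4:**
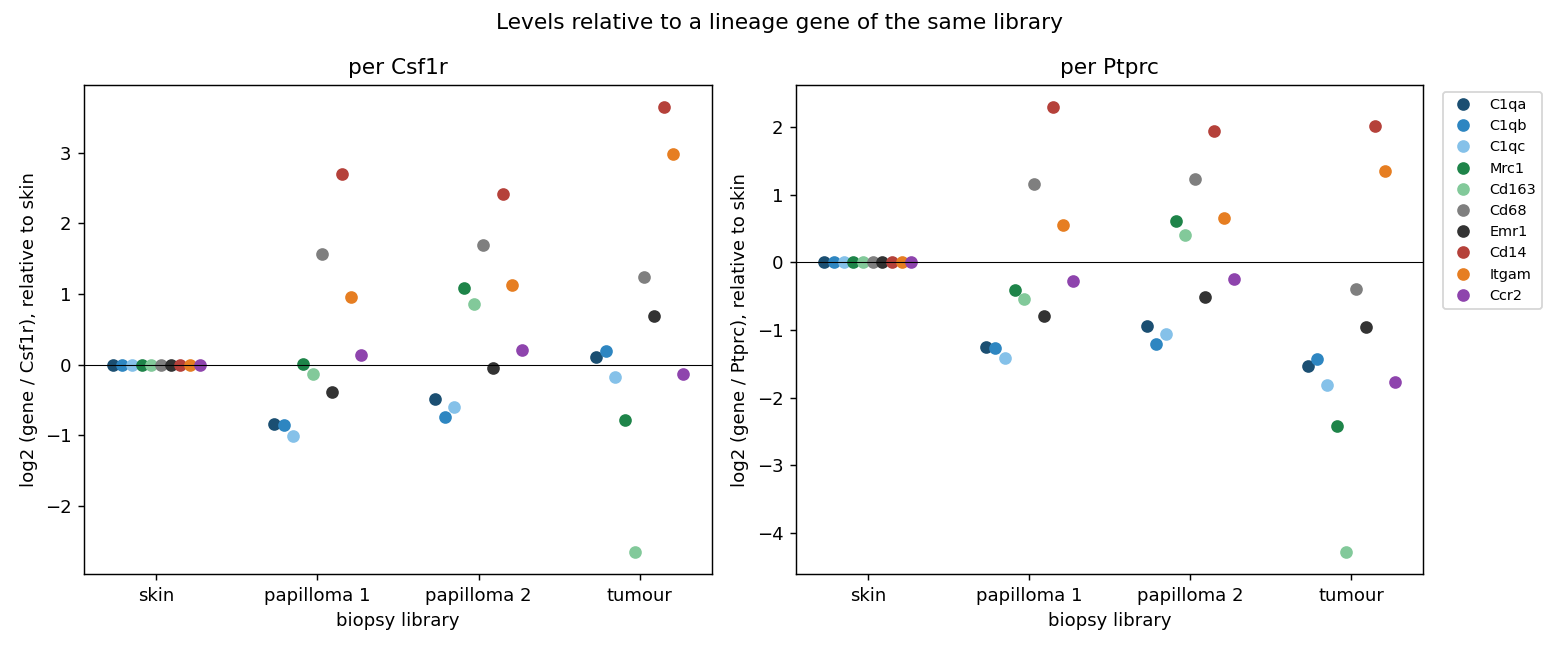
Log2 of each gene's CPM over that of Csf1r (left) or Ptprc (right) in the same library, with the skin value set to 0; 1 point per gene and biopsy. Cd14 and Itgam lie above 0 in every lesion on both sides, while the C1q genes of the tumour lie near 0 per Csf1r and below -1.4 per Ptprc.

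Other macrophage genes were read from lists, described by counts and medians beside the shares of all genes given above. Of 21 lineage genes tested, 1 rose and 3 fell in papilloma against skin (median log2 fold change -0.26; 0 and 7 with scaling by total counts, 3 and 6 with at least 10 counts in every biopsy). The lysozyme gene Lyz1 (-2.20 ± 0.38) and Mertk (-2.18 ± 0.43), a receptor for dying cells, fell (edgeR adjusted p = 0.0206 and 0.0277). In tumour against papilloma 15 of the 21 rose and 1 fell (median 1.12). Among those that rose were Cx3cr1, the fractalkine receptor gene, which measured 17.6 CPM in the tumour against 1.83 and 1.62 CPM in the papillomas, and Mpeg1, a pore-forming protein gene of macrophages, at 195 CPM against 33.0 and 26.6 CPM. The scavenger receptor gene Msr1 rose as well (2.00 ± 0.39, edgeR adjusted p = 0.0271).

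Of 16 further genes of tissue-resident macrophages, 10 fell and 1 rose in papilloma against skin (median log2 fold change -1.26). Cd5l, a scavenger protein gene, measured 1.41 and 1.31 CPM in the papillomas against 7.68 CPM in skin, and the lectin gene Cd209b 4.17 and 4.91 CPM against 21.7 CPM. Vsig4, a complement receptor gene, fell (-2.20 ± 0.43, edgeR adjusted p = 0.0270), a call that DESeq2's Wald test did not make (adjusted p = 0.071). Stab1, a scavenger receptor gene also expressed by endothelium, was the gene that rose. In tumour against papilloma 4 of the 16 fell and 0 rose (median -0.66). Cd209b (-1.88 ± 0.31), Cd209f (-1.65 ± 0.30) and Gas6, a bridging molecule for dying cells (-1.37 ± 0.18), were the deepest (edgeR adjusted p = 0.0179, 0.0237 and 0.0112); the Cd209f call was lost with scaling by total counts (edgeR adjusted p = 0.0565).

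Of 12 genes of classical monocytes, 3 rose and 0 fell in papilloma (1 and 1 with scaling by total counts). Sirpb1a had 8 and 9 counts in the papillomas against 0 in skin, at least 5.74-fold higher at a floor of 3 counts. The chitinase-like gene Chi3l3 rose (3.32 ± 0.72, edgeR adjusted p = 0.0342, or 0.0609 with scaling by total counts); its log2 ratio of CPM to skin was 3.05 with papilloma 2 alone and 1.81 with papilloma 1 alone. In tumour against papilloma 4 rose and 0 fell, led by the matrix genes Vcan (1.85 ± 0.21) and Fn1 (1.65 ± 0.21). Vcan and Fn1 also measured 609 and 1788 CPM in mSCC-38, a culture of skin tumour cells.

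Of 15 genes of the C1 complex and classical complement, which act with C1q, 8 fell and 1 rose in papilloma against skin. Those that fell included the protease genes C1ra (-1.17 ± 0.18, edgeR adjusted p = 0.0166) and C1s (-1.08 ± 0.14, edgeR adjusted p = 0.0132). The central component gene C3 measured 26.1 and 41.8 CPM in the papillomas against 281 CPM in skin, and C4b 22.1 and 25.2 CPM against 146 CPM. In mSCC-38 and mSCC-20, C3 measured 65.7 and 342 CPM, C1s 26.7 and 2.89 CPM and C1ra 14.2 and 3.96 CPM. C4b had 2 and 6 counts there. In tumour against papilloma 4 rose and 1 fell. The C1 inhibitor gene Serping1 (2.07 ± 0.18, edgeR adjusted p = 0.00445) and C2 (1.45 ± 0.27, edgeR adjusted p = 0.0245) rose, while C1ra (-0.55 ± 0.19) and C1s (0.07 ± 0.15) did not pass (edgeR adjusted p = 0.103 and 0.756). C3 (1.09 ± 0.31) did not pass in the main fit. It did pass without a filter on low counts, with at least 10 counts in every biopsy and in DESeq2's Wald test.

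Among 20 genes of Cd14 and Toll-like receptor signalling, 6 rose and 2 fell in papilloma (3 and 2 with scaling by total counts). Tlr4, the receptor served by CD14, rose in papilloma (1.21 ± 0.20, edgeR adjusted p = 0.0194, or 0.0759 with scaling by total counts) and was at -0.08 ± 0.19 in tumour against papilloma (edgeR adjusted p = 0.788). Its co-factor gene Ly96 passed neither test, at 0.36 ± 0.34 and 1.22 ± 0.32 (edgeR adjusted p = 0.458 and 0.0570). The tumour difference passed without a filter on low counts and with at least 10 counts in every biopsy (edgeR adjusted p = 0.0391 and 0.0196). Lbp, whose protein hands lipopolysaccharide to CD14, fell in papilloma (-1.83 ± 0.27, edgeR adjusted p = 0.0159). The adaptor gene Traf6 rose in papilloma (1.36 ± 0.23, edgeR adjusted p = 0.0195) and fell in tumour against papilloma (-1.36 ± 0.23, edgeR adjusted p = 0.0179), where 3 of the 20 rose and 3 fell (7 and 3 without a filter on low counts, 10 and 3 with at least 10 counts in every biopsy). Cd163 had its own partners among 11 genes of haemoglobin handling, of which 0 rose and 2 fell in papilloma (1 and 4 without a filter on low counts) and 3 rose and 2 fell in tumour against papilloma. Hmox1, the haem-degrading enzyme gene, measured 64.5 CPM in the tumour against 291 and 152 CPM in the papillomas (log2 fold change -1.78 ± 0.44, edgeR adjusted p = 0.0498, or 0.0591 with scaling by total counts), and the ferritin gene Fth1 4401 CPM against 918 and 695 CPM.

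The integrin partners of Itgam were read next. Of 10 beta 2 integrin and ligand genes tested, 5 rose and 0 fell in tumour against papilloma, and 2 rose and 1 fell in papilloma against skin (1 and 1 with scaling by total counts). Itgb2, the CD18 chain that pairs with Itgam, measured 45.9 CPM in the tumour against 13.4 and 11.7 CPM in the papillomas (1.87 ± 0.18, edgeR adjusted p = 0.00533). Itgax, the CD11c chain of dendritic cells and macrophages, measured 47.0 CPM against 11.2 and 9.46 CPM and also rose in papilloma against skin (1.91 ± 0.23, edgeR adjusted p = 0.0106).

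Attractants of monocytes, among them the ligand of CCR2, were set beside Ccr2. Of 14 attractant and growth factor genes, 5 rose and 1 fell in papilloma and 6 rose and 1 fell in tumour against papilloma. Ccl2, the main ligand of CCR2, measured 1.81 CPM in skin, 29.6 and 15.1 in the papillomas and 77.9 in the tumour, and passed both tests (3.62 ± 0.50 and 1.80 ± 0.39, edgeR adjusted p = 0.0142 and 0.0340). The macrophage growth factor gene Csf1 passed neither, with 46.1 CPM in skin, 39.8 and 40.7 in the papillomas and 53.1 in the tumour. Ccl8, another chemokine gene, fell in tumour against papilloma (-1.96 ± 0.32, edgeR adjusted p = 0.0169). Of 15 inflammatory activation genes tested, 9 rose and 0 fell in papilloma and 7 rose and 0 fell in tumour against papilloma. The receptor gene Trem1 measured 4.50 and 3.18 CPM in the papillomas against 0.0805 CPM in skin. Irg1, the itaconate enzyme gene, was at 45 and 51 counts in the papillomas against 1 count in skin, a count ratio of 96.1 (95% exact interval 16.8 to 3836). The chemokine gene Cxcl9 measured 123 CPM in the tumour against 3.33 and 5.16 CPM in the papillomas.

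Alternative activation genes were mixed, with 6 higher and 3 lower of 15 in papilloma and 4 higher and 2 lower in tumour against papilloma. Arg1, which encodes an arginine-degrading enzyme and is also made by other cells, measured 54.4 CPM in skin, 953 and 566 in the papillomas and 5876 in the tumour, with rises of 3.80 ± 0.51 and 2.95 ± 0.40 (edgeR adjusted p = 0.0132 and 0.0112). Retnla, a secreted factor gene of alternatively activated macrophages, measured 40.5 and 59.7 CPM in the papillomas against 546 CPM in skin (-3.45 ± 0.28, edgeR adjusted p = 0.00604). The chitinase-like gene Chi3l4 stood apart in the papillomas, with 746 and 1848 CPM against 2.39 CPM in skin and 6.62 CPM in the tumour. Its log2 ratio of CPM to skin was 8.81 with both papillomas and 8.01 with papilloma 1 alone.

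**Figure D5:**
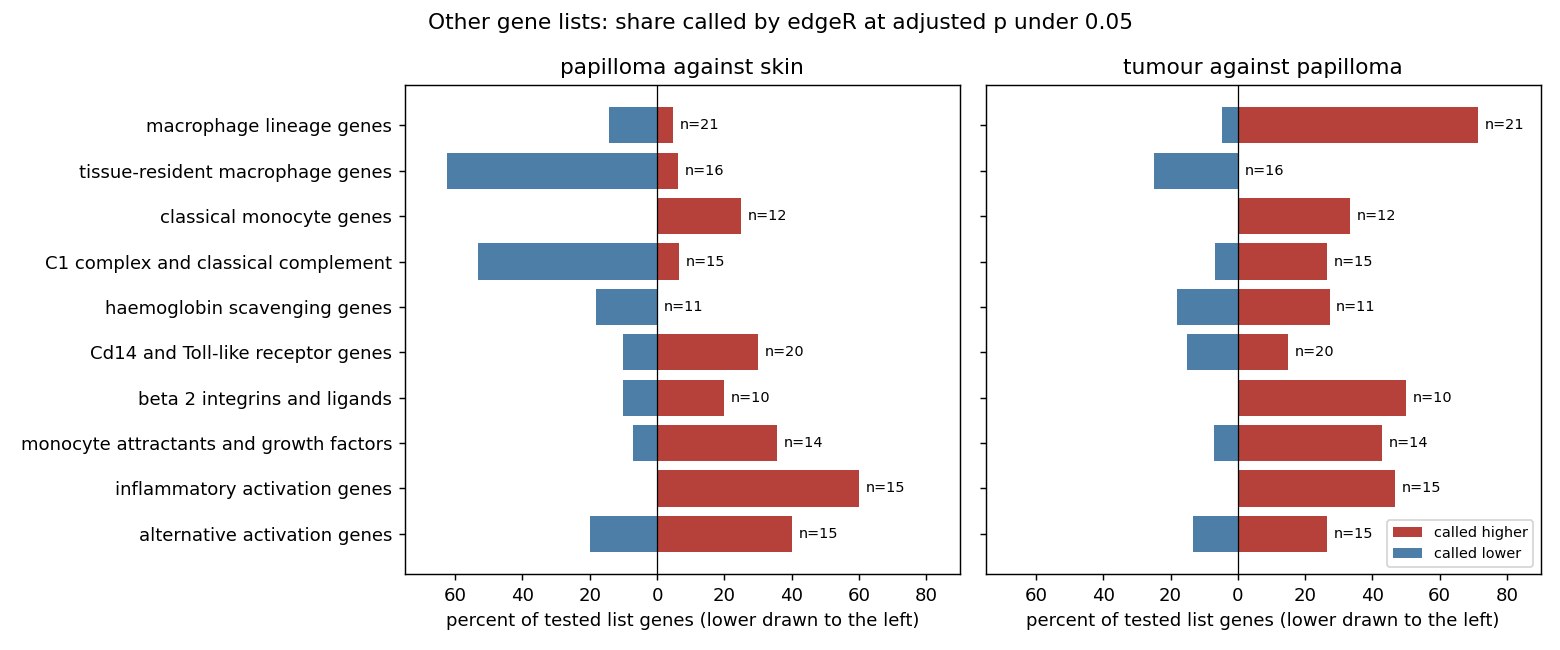
Share of the tested genes of each list that edgeR called higher (red, to the right) or lower (blue, to the left) at an adjusted p under 0.05, for papilloma against skin (left) and tumour against papilloma (right); n is the number of genes tested. Tissue-resident and complement genes lean to the left in papilloma, and 15 of 21 lineage genes are red in the tumour.

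Markers of other leukocytes were read beside Cd14 and Itgam. Of 15 neutrophil genes tested, 5 rose and 0 fell in papilloma and 6 rose and 2 fell in tumour against papilloma. The 16 genes summed to 49.3 CPM in skin, 3102 and 3959 in the papillomas and 3300 in the tumour, of which S100a8 and S100a9, also made by keratinocytes, supplied most in the papillomas. Without S100a8, S100a9 and Mmp9 the sums were 19.1 CPM in skin, 65.9 and 61.4 in the papillomas and 2138 in the tumour, where Ltf alone had 2023 CPM. Csf3r, a defining receptor gene of neutrophils, measured 1.77 CPM in skin, 6.23 and 4.87 in the papillomas and 34.3 in the tumour. Cxcr2, another receptor gene of that list, did not run parallel to Csf3r. It rose in papilloma against skin and was not called in tumour against papilloma. Cxcr2 per Csf3r stood at -0.39 in skin, 2.46 and 3.06 in the papillomas and -0.42 in the tumour on the log2 scale. Elane, a granule protease gene, had 0 counts in both papillomas, 3 in skin and 1 in the tumour. Itgam per Csf3r stood at 2.68 in skin, 1.33 and 1.73 in the papillomas and 1.24 in the tumour on the log2 scale. The part of neutrophils in the results for Cd14 and Itgam was not tested. Of 14 dendritic and Langerhans cell genes 1 rose and 0 fell in papilloma (0 and 4 with scaling by total counts, 0 and 0 with all 6 libraries in the fit or in the DESeq2 test). Tumour against papilloma had 0 higher and 2 lower (2 and 2 in those 3 alternatives), among them Cd207, the langerin gene, with 0.237 CPM in the tumour against 6.94 and 5.30 CPM in the papillomas. That list summed to 930 CPM in skin, 731 and 615 in the papillomas and 1099 in the tumour.

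In the cultures 7 of the 10 genes were near the floor of 3 counts. C1qa, C1qb, C1qc, Cd163, Emr1 and Ccr2 had 0 to 2 counts in mSCC-38 and in mSCC-20, and Itgam 3 and 4 counts. Muscle genes, which cultured skin cells should lack, still had a median of 0.0370% and 0.0630% of their highest library in mSCC-38 and mSCC-20, against 0% to 0.112% in mSCC-38 and 0% to 0.357% in mSCC-20 for these 7 genes. Cd68 and Cd14 were well above the floor in both cultures, and Mrc1 in mSCC-38. Cd14 had 445 counts (13.4 CPM) in mSCC-38 and 102 counts (3.31 CPM) in mSCC-20, and Cd68 426 counts (12.9 CPM) and 102 counts (3.31 CPM). In the same cultures Ptprc had 1 and 5 counts and Tyrobp, a signalling adaptor gene of myeloid cells, 0 and 3 counts. The Cd14 level of mSCC-38 was 15.7% of that of the tumour and the Cd68 level 45.7%, so both RNAs were present where counts of Ptprc were near the floor. Leukocyte genes were not all absent: 6 pan-leukocyte genes summed to 68.0 CPM in mSCC-38 and 6.59 CPM in mSCC-20, mostly Lcp1, an actin-bundling protein gene, with 1915 counts in mSCC-38. The part of leukocytes in the culture values was not tested. Csf1r had 13 and 58 counts in mSCC-38 and mSCC-20.

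Between the cultures, 3 of the 10 genes reached 1 CPM in either. Cd14 and Cd68 reached it in both and were more than 2-fold higher in mSCC-38. Of the 12297 genes at that level in either culture, 17.2% were higher and 15.6% lower. Mrc1 reached 1 CPM in mSCC-38 alone, so its direction was fixed by that rule and is not counted as a result. Cd14 was 4.05-fold higher in mSCC-38 (95% exact interval 3.26 to 5.08) and Cd68 3.88-fold higher (3.12 to 4.87). Mrc1 had 57 counts in mSCC-38 against 5 in mSCC-20, a ratio of 10.6 (4.28 to 33.9), at 1.79% of its level in papilloma 2. With 1 library per culture there is no replicate check. Ccl2 was also counted in both, at 156 CPM in mSCC-38 and 74.9 CPM in mSCC-20.

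Genes with the most similar profiles were sought among 11829 genes that reached 10 CPM, by the root mean square difference of centred log2 (CPM + 1) over the 6 libraries. Nearest to the C1q mean were Trf, the transferrin gene (0.29), D0H4S114 (0.29), Fndc1 (0.35), Laptm5, a lysosomal membrane gene of leukocytes (0.35), and Nlrc5, a regulator of MHC class I genes (0.36). The distance counts the cultures too, where each of these genes was under 1 CPM. A near profile need not share the C1q dip in papillomas. Laptm5 measured 54.3 CPM in skin, 46.2 and 44.6 in the papillomas and 86.6 in the tumour. It was not called in papilloma against skin (edgeR adjusted p = 0.231). Nearest to Cd14 were Nlrp3, an inflammasome sensor gene (0.32), Ptprj (0.32), Pcdhb17 (0.33), Fam5c (0.38) and Serpine2, a protease inhibitor gene (0.40). Nlrp3 measured 0.805 CPM in skin, 5.91 and 3.85 in the papillomas, 10.6 in the tumour, 0.845 in mSCC-38 and 0 in mSCC-20. The points share libraries and scaling, so these distances are descriptions.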

How the data were processed

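RNA was measured in 6 mouse libraries; per the labels' protocols, library preparation used a SOLiD kit meant for small RNA. The authors deposited raw counts per gene model and library, on build mm9 per the submitters' processing notes, and RPKM values, per the file headers, which were used only to compare genes within a library. The sources used here name no aligner or counter and do not say whether strand was used. Total counts ran from 25140489 to 42992597. CPM were scaled with TMM factors over all 6 libraries. Groups were fitted by edgeR 4.0.16 (limma 3.58.1, R 4.3.3) over the 4 biopsies (16353 genes, default low-count filter, common dispersion 0.0773), with calls at p under 0.05 after Benjamini-Hochberg adjustment over all genes; SE is the absolute log2 fold change over the square root of F. The step was tested on simulated data in which all 4 biopsies were given the fitted dispersion. That simulation therefore cannot check the spread assumed for skin and tumour. DESeq2 1.42.0, other scalings, filters and libraries were tried. Log2 ratios of CPM add 0.5 CPM to each side. Named were the 10 genes, 12 partner genes of which Spi1 had no row under that symbol, and genes from the 3 largest called changes of each list per tested comparison; some of these are not reported here. Others (Stab1, Tyrobp, Lcp1, S100a8, S100a9, Mmp9, Cxcr2, Elane and Mir511) were named after their values were seen. The genes and lists were chosen with earlier results of these data known.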

Additional observations from a re-analysis of the deposited data

How the results depend on the processing

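Over the alternatives, 135 of 140 fold changes of the 10 genes kept direction and side of the threshold. The exceptions are Emr1 and Cd68 in papilloma against skin, given with their values in the report, and Mrc1 and Cd68 below. The alternative with TMM factors over the 4 biopsies gave the same calls and medians as the main fit. Its part of the 140 is therefore no separate check. Scaling by total counts alone moved the median log2 fold change of papilloma against skin to -0.48 (-0.06 with TMM), with 1015 genes called higher and 3484 lower (22.6% higher, against 45.6%), so directions there are relative to that shift. With it 1 of the 10 genes was called higher in papilloma, and 2 were lower by size in tumour against skin, where Cd68 lost its call. DESeq2's Wald test called 2348 higher and 1740 lower in papilloma (57.4% higher). In papilloma against skin, total counts turned the log2 fold changes of Mrc1 to -0.33, Fn1 to -0.27, Vcan to -0.34, Ly96 to -0.054, Ccl8 to -0.40 (-0.011 with DESeq2 size factors), Cxcl10 to -0.11, Cd53 to -0.061 and Coro1a to -0.25. In tumour against papilloma, Cd68 turned to -0.030 with DESeq2 size factors, Tlr4 to 0.048 with total counts, and Jam3 to 0.13 with total counts and 0.000396 with at least 10 counts in every biopsy. At 10 CPM and a 4-fold ratio with 0.5 CPM added to each side, 0 of the 10 genes were called higher in mSCC-38; Cd14, 4.05-fold without that addition, fell short through it. The resident minus inflammatory score changed between papilloma and skin by -1.50 with Ccr2 added, -1.29 without Cd14 and -2.50 with C1q alone, between tumour and papilloma by -1.26 with Ccr2 and -0.70 with C1q, and between tumour and skin by -2.75 and -3.20; mSCC-38 minus mSCC-20, which averages genes mostly near the floor, was -0.58 and turned to 0.40 without Cd14. Leaving out either papilloma gave -2.34 to -1.70 for papilloma minus skin and -2.18 to -1.53 for tumour minus papilloma; counts of calls could not be had that way, with no residual degrees of freedom. The causes were not tested. No paired analysis was possible because papilloma alone has more than 1 library, so the groups compared share fewer than 2 replicate numbers.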
